A study of Gallus gallus with 6 samples.

Results

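The genes described here are 23 mRNAs of amino acid metabolism, most of them enzymes that break amino acids down, among the 1480 mRNAs of the table that the authors deposited as differentially expressed between immature and mature livers of breeder roosters. They are the listed mRNAs whose deposited KEGG annotation (a database of metabolic pathways) names the degradation of valine, leucine and isoleucine or of lysine, or the metabolism of arginine and proline, tryptophan, histidine, tyrosine, phenylalanine, alanine, aspartate and glutamate, or cysteine and methionine. These 9 terms, together with ACAD8 and ACADSB by name, selected 32 mRNAs. Of these, 9 were left out, either because they belong to 11 genes set aside by name (ACAT2, ADSL, GATM, GLDC, AMT, PSPH, LDHA, OGDH, MDH2, DHTKD1 and HADHA) or because they carry the KEGG term of fatty acid degradation. ACADSB carries that term as well and was kept because it was chosen by name.

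The study asked which mRNAs differ between the newborn and the adult liver. Immature livers came from Arbor Acres breeder roosters aged 1 day and mature livers from breeder roosters of the same line aged 40 weeks, all kept without feed for 12 h, with no treatment and no genetic change in either group. There were 3 libraries per group. Each immature library pooled the RNA of 4 livers, 12 chicks in all, and each mature library held the liver of 1 rooster, so that single chicks cannot be followed and age cannot be told apart from feeding history, housing or sexual maturity. RNA was sequenced after removal of ribosomal RNA in strand-specific libraries.

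The deposited table gives each group a single FPKM, a level corrected for transcript length and for the fragments sequenced, and no value per library was used here. FPKM are therefore printed as the authors' group values without an error, the table holds no number of reads behind them, and no difference was set against the spread between libraries, which the deposited values do not hold. Where a pair of FPKM is given, the immature group comes first. A log2 difference is the mature less the immature value of log2(FPKM + 1), which makes the difference of mRNAs with low levels look smaller than their ratio, and no test was run. All 1466 mRNAs of the table with a value over 0 in both groups had a ratio of group FPKM over 2 (the lowest was 2.00). That the members differed by such a ratio was therefore fixed by the authors' selection, and only the direction and the size of a difference describe them. Genes of these pathways that are not listed were not measured here, which does not make them unchanged.

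Amino acid degradation begins with the removal of nitrogen, mostly by aminotransferases that pass the amino group to 2-oxoglutarate and so make glutamate. The carbon skeletons are then oxidised, largely in mitochondria, to citrate cycle intermediates, acetyl-CoA or ketone bodies. The liver carries most of this work for the aromatic amino acids, while the first step of branched-chain amino acid breakdown is known in mammals to lie mainly outside the liver. Birds excrete nitrogen chiefly as uric acid and do not run a complete urea cycle in the liver. A hatchling lives on yolk lipid and protein, and an adult bird on a diet rich in carbohydrate.

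Of the 23 genes, 12 were higher and 11 lower in mature livers, beside 54.9% higher and 45.1% lower over all 1480 mRNAs of the table, and 49.5% higher and 50.5% lower over the 327 with any KEGG term. ASS1, which joins citrulline and aspartate on the way to arginine, was 5.02-fold higher and the cytosolic synthase HMGCS1 was 4.39-fold higher. On the other side an aminoacylase (ENSGALG00000027588) was 4.33-fold lower and FAHD1, a mitochondrial hydrolase, 3.97-fold lower. The RNA is that of whole liver, in which fewer cells of a type and less RNA per cell cannot be told apart.

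Most differences were near the lowest that the table admits. Of the 23 genes, 15 (65.2%) had a ratio of 2 to 3, beside 45.4% of the 1466 mRNAs, and 5 (21.7%) had a ratio over 4, beside 38.8%. The median ratio in either direction was 2.70 for the members and 3.21 for the table. On log2(FPKM + 1), 11 members (47.8%) were over 1 and 9 (39.1%) under -1, beside 35.9% and 29.8% of the 1480 mRNAs (65.7% in either direction). Members had higher levels than the table (median immature FPKM 18.5 beside 3.25), and a pseudocount of 1 shrinks differences at low levels. In 1189 mRNAs the higher group value was at least the lowest such value of a member. Of these, 42.3% were over 1 and 35.7% under -1 (78.0% in either direction). Among the 327 mRNAs with a KEGG term 38.2% were over 1 and 38.2% under -1 (76.5% in either direction). AOX1, SRM and the glutamine synthetase (ENSGALG00000008518) lay between, and with a pseudocount of 0.1 all 3 passed as well. So did nearly the whole table at that setting, with 53.0% over 1 and 43.4% under -1. The median log2 difference of the 23 genes was 0.95, the value of AOX1, beside 0.64 over the table, and it describes no typical member, since none lay between SRM at -0.93 and AOX1 at 0.95. After centring on the median of the table, 3 members were over 1 and 11 under -1, beside 15% and 45.1% of the 1480 mRNAs. Centring on the median of the mRNAs with a KEGG term (-0.54) was a setting chosen after seeing the data. With it 12 members were over 1 and 3 under -1, beside 53.6% and 11.3% of the 1480 mRNAs. Pseudocounts, folds and filters cannot turn a direction, and the shifts of 0.64 and -0.54 were smaller than the difference of any member. That every member kept its direction was therefore fixed in advance.

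**Figure D1:**
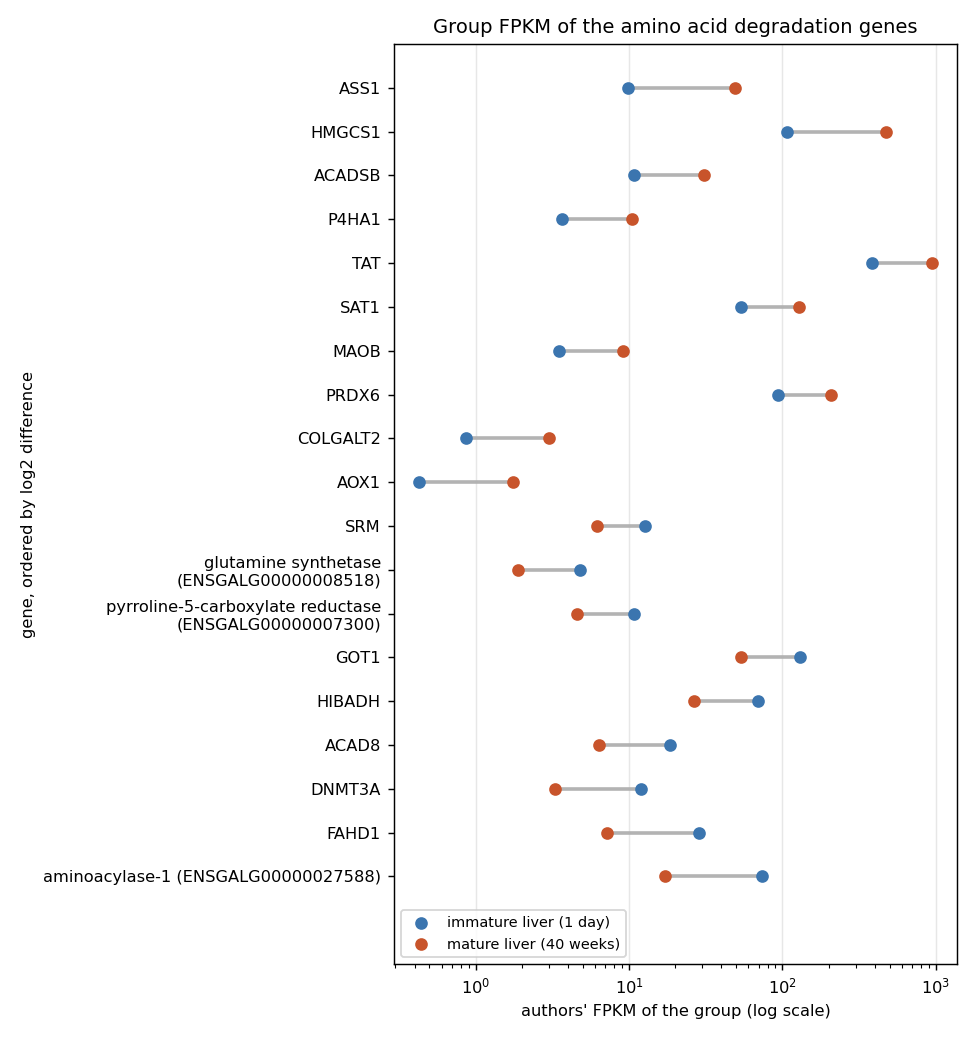
Authors' FPKM of 19 amino acid degradation genes in immature livers (blue) and mature livers (orange) on a log axis, 1 point per group and gene, ordered by the log2(FPKM + 1) difference. ASS1, at the top, goes from 9.78 to 49.1 FPKM, and the 9 genes from SRM down have the higher value in immature livers.

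Among the genes described here TAT had the highest level in both groups, at 385 and 941 FPKM. In immature livers GOT1 (130 FPKM) and HMGCS1 (107 FPKM) came next, and in mature livers HMGCS1 (470 FPKM) and PRDX6 (208 FPKM). AOX1, an oxidase of aldehydes and heterocycles, had the lowest level in both groups, at 0.429 and 1.76 FPKM.

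**Figure D2:**
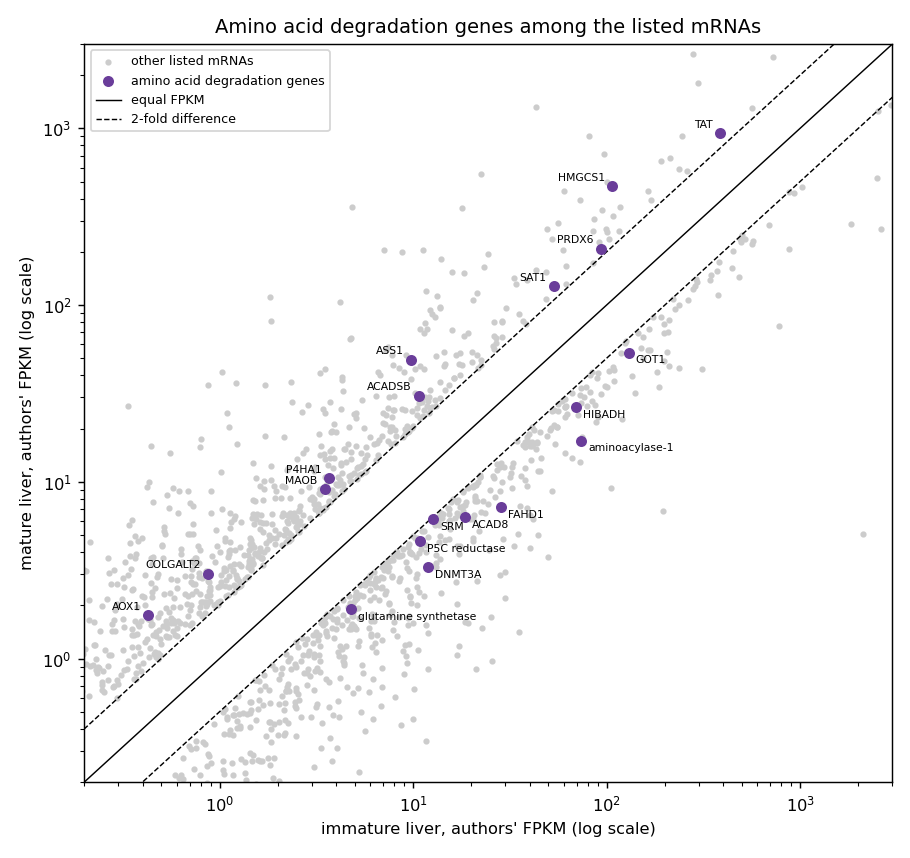
Authors' FPKM in mature against immature livers on log axes, with 19 amino acid degradation genes in purple and labelled and the other listed mRNAs in grey; P5C stands for pyrroline-5-carboxylate, and mRNAs beyond the axes and those not reported are not drawn. The band between the dashed lines of a 2-fold difference is empty because the table holds no such mRNA, and most members lie close to its edges, with ASS1, at 9.78 and 49.1 FPKM, the farthest from it.

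HMGCS1 (chromosome Z, 13500897 to 13524547), the cytosolic synthase of the sterol pathway, was listed at 107 and 470 FPKM, with a log2 difference of 2.12. It belongs to sterol synthesis rather than to amino acid breakdown, although its KEGG annotation holds the branched-chain pathway.

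The acyl-CoA dehydrogenases of the branched-chain pathways went in opposite directions. ACADSB (chromosome 6, 30967356 to 30995110), which oxidises the isoleucine-derived acyl-CoA, was listed at 10.7 and 30.7 FPKM (log2 difference 1.44). ACAD8 (chromosome 24, 2558581 to 2565333), which oxidises isobutyryl-CoA from valine, was listed at 18.5 and 6.35 FPKM (-1.41). The FPKM ratio of ACADSB to ACAD8 was 0.579 in immature and 4.83 in mature livers, so that their order was reversed. HIBADH (chromosome 2, 33345458 to 33429553), which oxidises 3-hydroxyisobutyrate further along the valine pathway, was listed at 69.7 and 26.5 FPKM (-1.36), in the direction of ACAD8. Both listed members that serve valine alone were thus lower in mature livers.

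A list of 31 symbols for branched-chain amino acid degradation, which includes older symbols of the same genes, had 7 listed mRNAs, 4 higher and 3 lower. Besides the members it held BCAT1, the cytosolic aminotransferase that starts the pathway, at 5.49 and 12.6 FPKM (1.07). BCKDHB, a subunit of the branched-chain keto acid dehydrogenase that commits the skeletons to breakdown, was listed at 22.2 and 10.9 FPKM (-0.96). AUH, a hydratase of the leucine pathway, was listed at 0.360 and 1.03 FPKM (0.58, which turns negative once the median of the table, 0.64, is taken off). By FPKM as deposited, AUH of the leucine steps thus had the higher value in mature livers, as did ACADSB of the isoleucine steps, while the keto acid dehydrogenase subunit shared by all 3 amino acids and the valine steps had the lower one.

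Among the aromatic amino acid genes TAT, the aminotransferase that starts tyrosine breakdown, was the one with the highest level. It was listed at 385 and 941 FPKM (log2 difference 1.29; chromosome 11, 19280393 to 19289813). Of the members, 6 carry the KEGG term of tyrosine metabolism, 3 higher (TAT, MAOB and AOX1) and 3 lower, and 4 carry that of phenylalanine metabolism, 3 higher and 1 lower. Over all rows of the table the tyrosine term had 4 higher and 3 lower mRNAs. FAH, which carries out the last step of tyrosine breakdown and is no member because the table gives it no KEGG term, was listed at 62.7 and 24.1 FPKM (-1.34). FAHD1 (chromosome 14, 6033361 to 6043830), a relative of FAH that in mammals acts on oxaloacetate and acylpyruvates, was listed at 28.5 and 7.18 FPKM (-1.85). Of a hand-made list of 17 symbols of phenylalanine and tyrosine degradation, 6 were listed, and TAT was the single higher one beside 5 lower. The lower ones included DDT, a tautomerase, at 294 and 134 FPKM (-1.12).

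The monoamine oxidases were higher in mature livers, although the kynurenine genes of tryptophan breakdown were lower. MAOB, which oxidises phenylethylamine and other amines in the mitochondrial outer membrane, was listed at 3.50 and 9.08 FPKM (log2 difference 1.16; chromosome 1, 110555373 to 110609410). MAOA, its close relative and no member because it has no KEGG term in the table, was listed at 4.50 and 12.9 FPKM (1.34). Its locus lies 4.02 kb from that of MAOB, and reads shared by these related genes cannot be followed in FPKM. AOX1 (chromosome 7, 10696197 to 10735259) was 4.10-fold higher at low levels. In the kynurenine branch IDO2, which opens the indole ring, was listed at 16.9 and 7.66 FPKM (-1.04), HAAO, which cleaves 3-hydroxyanthranilate, at 76.5 and 30.1 FPKM (-1.32), and ALDH8A1, an aldehyde dehydrogenase further along, at 53.7 and 20.9 FPKM (-1.32). All 3 listed kynurenine genes were lower, and both listed amine oxidases of the same list of 22 symbols were higher. TDO2, the dioxygenase that starts the branch in liver, and HPD of the tyrosine pathway are not listed by these symbols.

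PRDX6 (chromosome 8, 4284024 to 4316854) carries the KEGG term of phenylalanine metabolism but encodes a peroxiredoxin, which reduces peroxides. It was listed at 93.0 and 208 FPKM (log2 difference 1.16). Its locus lies 0.246 kb from that of a dimethylaniline monooxygenase gene (ENSGALG00000003022), which was listed at 41.2 and 15.9 FPKM (-1.32). These neighbours had opposite directions.

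Of the 4 members that handle glutamate, glutamine and aspartate, 2 were higher and 2 lower. The row described as glutamine synthetase (ENSGALG00000008518; chromosome 17, 1930958 to 1940124), which joins ammonia to glutamate, was listed at 4.77 and 1.90 FPKM (log2 difference -0.99). GOT1, the cytosolic aspartate aminotransferase, was listed at 130 and 53.9 FPKM (-1.25; chromosome 6, 21685490 to 21689398). TAT and GOT1, both aminotransferases that use pyridoxal phosphate, stood at a ratio of 2.96 in immature and 17.5 in mature livers. A row described as glutamate dehydrogenase (ENSGALG00000002020), the mitochondrial enzyme that frees ammonia from glutamate, was lower as well, at 572 and 230 FPKM (-1.31). It has no symbol and no KEGG term in the table and was chosen after its values were seen.

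ASS1 (chromosome 17, 5881859 to 5902534) was listed at 9.78 and 49.1 FPKM, a log2 difference of 2.22. Among the members its rank by FPKM went from 17 in immature to 8 in mature livers. It was the single listed gene of 7 symbols of the urea cycle and its transporters. ARG2, the mitochondrial arginase that splits arginine to ornithine and urea, was listed at 4.16 and 0.469 FPKM (-1.81) and was 8.87-fold lower. The enzyme that makes the precursor of arginine was thus higher, and the listed arginase lower, in mature livers.

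Of the members, 10 carry the KEGG term of arginine and proline metabolism, 5 higher and 5 lower. Over all rows of the table this term had 6 higher and 7 lower mRNAs. A hand-made list of 34 symbols of arginine, proline and polyamine metabolism had 6 listed mRNAs, 2 higher (P4HA1 and SAT1) and 4 lower (SRM, PYCRL, ALDH4A1 and ARG2). A pyrroline-5-carboxylate reductase (ENSGALG00000007300; chromosome 18, 10246615 to 10250302), which makes proline, was listed at 10.8 and 4.61 FPKM (log2 difference -1.08). PYCRL, a second gene of this activity that has no KEGG term in the table, was listed at 5.53 and 2.25 FPKM (-1.01). ALDH4A1, which oxidises pyrroline-5-carboxylate to glutamate in proline breakdown, was listed at 71.2 and 24.0 FPKM (-1.53).

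Of the polyamine genes, 2 are members, with opposite directions. SRM, the synthase that makes spermidine, was listed at 12.7 and 6.16 FPKM (log2 difference -0.93; chromosome 21, 4109467 to 4116088), the smallest ratio among the members at 2.06, and it lay within the 2-fold difference on the log2(FPKM + 1) scale. SAT1, the acetyltransferase that starts polyamine breakdown and export, was listed at 53.4 and 128 FPKM (1.25; chromosome 1, 117759360 to 117761976). The FPKM ratio of SAT1 to SRM was 4.22 in immature and 20.8 in mature livers. ODC1, the decarboxylase at the start of polyamine synthesis, is not listed. Aminoacylase-1 (ENSGALG00000027588; chromosome 12, 3126675 to 3130439), which frees amino acids from their N-acetylated form, was listed at 74.0 and 17.1 FPKM, and its log2 difference of -2.05 was the most negative of the members.

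A few members modify proteins or DNA and are grouped with amino acids because KEGG counts their substrates or methyl donor. P4HA1, a subunit of the prolyl hydroxylase of collagen, was listed at 3.67 and 10.5 FPKM (log2 difference 1.30; chromosome 6, 10739118 to 10791996). COLGALT2, which adds galactose to hydroxylysine of collagen, was listed at 0.871 and 3.03 FPKM (1.11). It was the single member with the lysine degradation term, so that no member represents the breakdown of lysine itself. Of a list of 11 lysine symbols PIPOX, the peroxisomal pipecolate oxidase, was listed, at 11.4 and 2.27 FPKM (-1.93). Of 10 stellate cell and fibroblast markers the collagen gene COL1A2 was listed at 52.5 and 8.82 FPKM (-2.45), opposite to both collagen enzymes, and RGS5 at 12.6 and 88.8 FPKM (2.72), in their direction.

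DNMT3A, a methyltransferase that sets DNA methylation anew from S-adenosylmethionine, was listed at 11.9 and 3.29 FPKM (log2 difference -1.59; chromosome 3, 104238781 to 104259690). It was the single member with a deposited lncRNA within 100 kb (4.35% of members, beside 13.8% of all 1480 mRNAs). This intergenic lncRNA, TCONS_00045141 (chromosome 3, 104234674 to 104235043), lies 3.74 kb from the DNMT3A locus and was listed at 8.64 and 0.754 FPKM (-2.46), in the direction of DNMT3A. Among the genes of sulfur amino acids that have no KEGG term, CTH, which releases cysteine from cystathionine, was listed at 66.2 and 31.8 FPKM (-1.03) and CDO1, the dioxygenase that oxidises cysteine, at 21.4 and 117 FPKM (2.40). A row described as cystathionine beta-synthase (ENSGALG00000016196), chosen after its values were seen, was listed at 14.4 and 45.1 FPKM (1.58). CDO1 and the row of the first transsulfuration step thus had the higher value, and CTH of the second step the lower one, in mature livers.

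**Figure D3:**
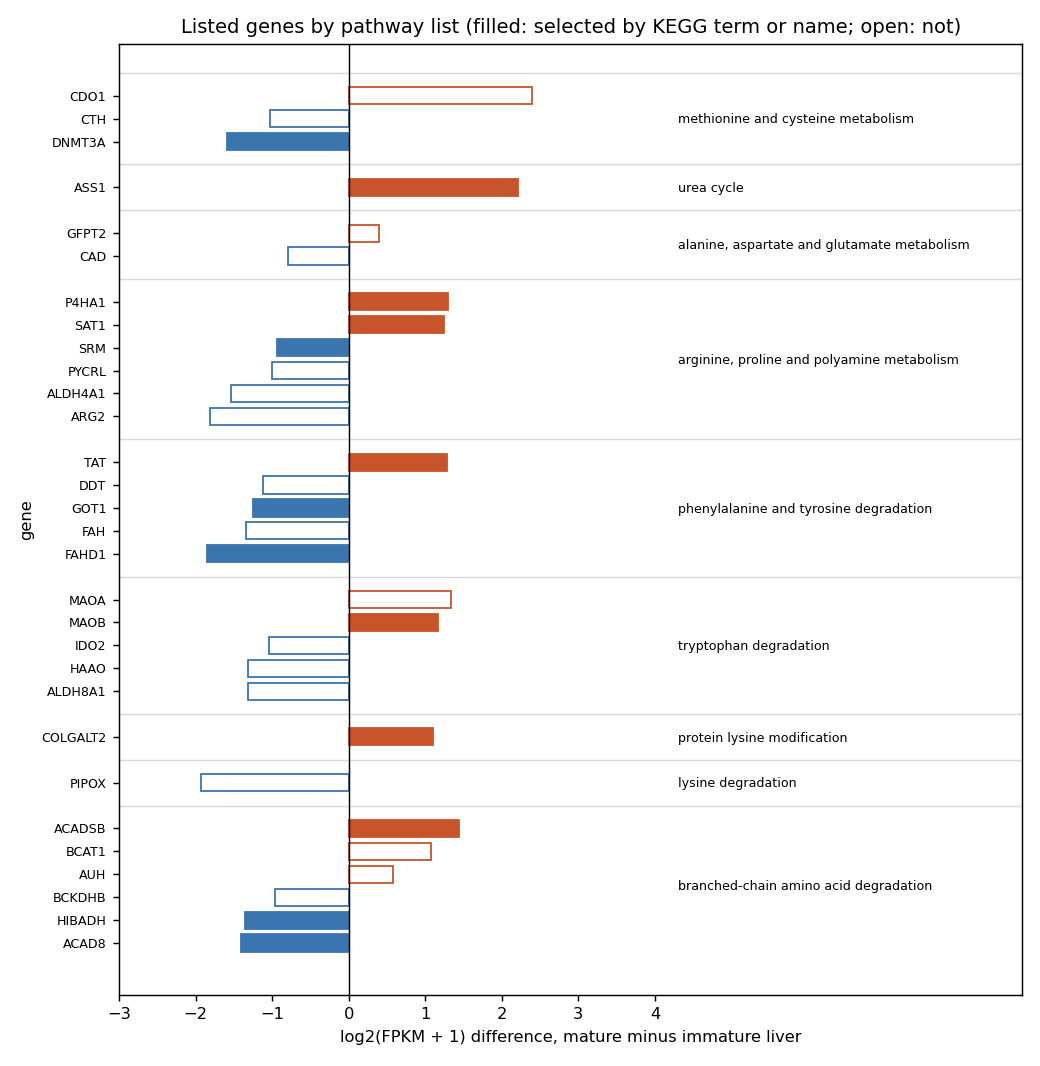
Log2(FPKM + 1) difference, mature minus immature livers, of the genes reported from the hand-made pathway lists, with filled bars for genes selected by their KEGG term or name and open bars for the others, in orange where higher and blue where lower in mature livers. Each list with more than 1 bar holds bars of both directions, and the longest bar is that of CDO1 at 2.40.

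The pathway lists together held 219 symbols, of which 33 were listed, 14 higher and 19 lower. Of these, 16 were members and the other 17 had no KEGG term in the table. Among these 17 genes, 5 were higher and 12 (70.6%) lower in mature livers, beside 45.1% lower over the table and 50.5% lower over the mRNAs with a KEGG term, with a median log2 difference of -1.03, and of the higher ones AUH and GFPT2 (0.40) turn lower after centring on the median of the table. None of 9 symbols of histidine degradation was listed, and MAOB is the single member with the KEGG term of histidine metabolism, which 3 mRNAs of the table carry (2 higher and 1 lower). All 11 genes that were left out by name are listed in the table, 3 higher (ACAT2, LDHA and PSPH) and 8 lower.

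By deposited gene ontology terms, 8 members were annotated to mitochondria, 4 higher (ACADSB, TAT and MAOB among them) and 4 lower (HIBADH and FAHD1 among them). Of all listed mRNAs, 133 had such a term, 36 higher and 97 lower, with a median log2 difference of -1.08, beside -0.08 for the 8 members. ACAD8 is described as a mitochondrial protein but carries no mitochondrial term, and the ontology terms of P4HA1 were not used here. These terms take no account of where the enzyme acts in the chicken, and nothing beyond these counts is drawn from 8 genes.

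**Figure D4:**
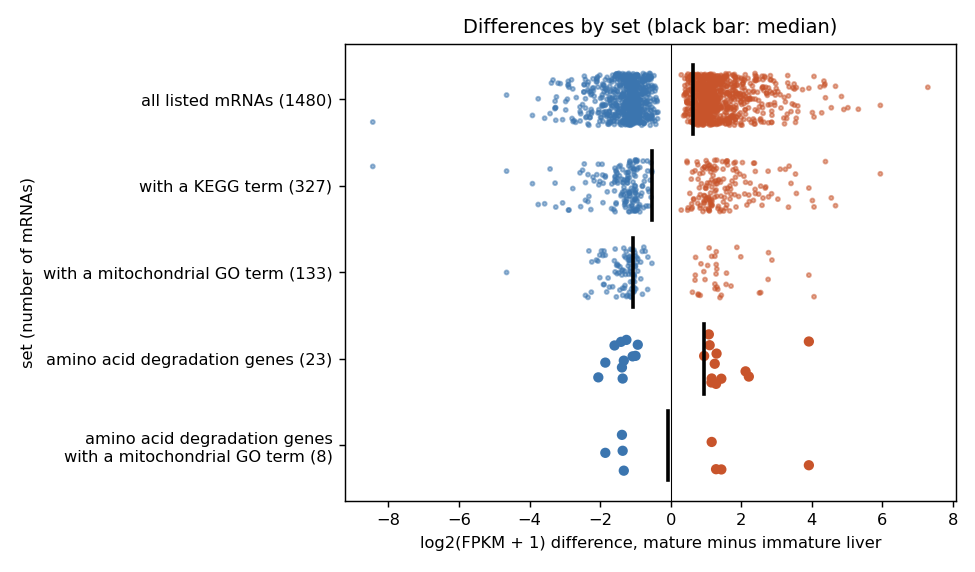
Log2(FPKM + 1) differences, mature minus immature livers, 1 point per mRNA, for all listed mRNAs, those with a KEGG term, those with a mitochondrial gene ontology term, the 23 amino acid degradation genes and the 8 of these with a mitochondrial term, with the median of each set as a black bar. The mitochondrial set has 97 of its 133 points below 0, while the 8 members with such a term have 4 on each side.

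The 23 genes lie on 16 chromosomes, and 17 of them (73.9%) have another listed mRNA within 100 kb, beside 53.9% of all 1480 mRNAs. In 14 of the 23 pairs of a member and such a neighbour both had the same direction, and in 9 the opposite one. COLGALT2 and RGL1 are given the same locus (chromosome 8, 7641618 to 7742754), so that the coordinates do not bound COLGALT2 alone, and whether the authors' assembly parted the reads of these neighbours is unknown. RGL1 was listed at 4.39 and 9.12 FPKM, higher in mature livers like COLGALT2.

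Markers of other liver cells were among the listed mRNAs. That a listed marker differs between the groups was fixed by the authors' selection, and only its direction and size describe it. All 5 listed of 11 T and natural killer cell markers were higher in mature livers, with summed FPKM of 3.10 in immature and 53.9 in mature livers, as were all 6 listed of 11 macrophage and Kupffer cell markers (136 and 850 FPKM). All 7 listed of 10 markers of dividing cells were lower (110 and 8.17 FPKM). None of these listed markers was at 0 in either group. Of 18 hepatocyte markers RBP4 was listed at 564 and 1295 FPKM and AHSG at 2625 and 269 FPKM, so that hepatocyte RNA was present in both groups, but ALB, TTR and APOA1 are not listed and the tissue could not be checked further. Of 9 endothelial markers 3 were listed, 2 higher (VWF and LYVE1) and 1 lower (STAB2), with summed FPKM of 31.4 and 59.6, and no cholangiocyte marker was listed. Of 13 erythroid markers 1 was listed, HEMGN, lower at 1.44 and 0.567 FPKM. MAOA, P4HA1 and DNMT3A are not restricted to hepatocytes, and the part of other cell types in the differences was not tested.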

How the data were processed

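Livers of 12 chicks (3 libraries) and 3 roosters (3 libraries) were sequenced by the authors after removal of ribosomal RNA. The submitters' processing notes name FastQC, Bowtie2 2.0.6, TopHat, Cufflinks, Cuffdiff and DESeq without their roles, while the paper's methods name StringTie and Gallus gallus 5. Coordinates are printed as deposited, and which build they follow was not stated in the labels or tables. The deposited FPKM are 1 value per group as the authors computed it, and how they combined the libraries is not stated. The deposited tables also hold the authors' own log2 ratio, direction, p-value and significance mark per transcript, which were not used. The deposited table differs in size and composition from the list of differentially expressed mRNAs in the paper, so shares refer to the deposited rows alone.

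Differences were computed as log2(FPKM + 1), mature minus immature livers, over all 1480 mRNAs (Python 3.11.15, pandas 2.3.3), with no test, since each group has 1 value. The calculation was run on simulated data without noise. The planted changes were large enough that arithmetic fixed their recovery, so this run checks the code alone. Alternatives were pseudocounts of 0.1, 0.01 and none, a mean FPKM of at least 1, centring on the median of the table, folds of 1.5 and 4, and rows of 1 symbol summed. KEGG terms are read from the deposited annotation, in which 327 mRNAs have one. Genes to name were all members with a symbol (20) and genes of hand-made lists, of which a part is named in the text. The 3 members without a symbol are named by their description in the table and fall outside this rule, as do RGL1 and ENSGALG00000003022, which were chosen after their values were seen. Members and lists were chosen with earlier results of these data known. Of the members, 18 were found by symbol in RefSeq's GRCg7b gene table, all on the same chromosome. No sequences are printed. Results of some genes are not reported here, although counts and medians over all 23 members include every member.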

Additional observations from a re-analysis of the deposited data

How the results depend on the processing

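No paired analysis was possible because the deposited columns hold 1 value per group and no library, and for the same reason no library could be left out. The deposited FPKM carry no read counts, so the counting error of low values such as those of AOX1 or COLGALT2 was not computed. No setting tried could change the direction of a member, so that none changed carries no information. With pseudocounts of 0.1 and 0.01 and with none, 12 members were past the 2-fold difference upwards and 11 downwards. The shares over the table were 53.0% and 43.4% at 0.1, and 54.7% and 45.1% at 0.01. With none they were 54.8% and 45.2% of 1466 mRNAs, so that nearly the whole table passed. The median log2 difference of the members was 1.16 in each. A fold of 1.5 gave the same counts, beside 51.6% and 42.4% of the table. A fold of 4 left 3 higher and 1 lower, beside 9.46% and 5.34% of the table. Centring on the median of all mRNAs (0.64) left 3 higher and 11 lower, beside 15% and 45.1% of the table, with a member median of 0.31. The lower counts follow from the stricter fold and from the shifted zero. The next 2 settings were chosen after seeing the data. Centring on the median of mRNAs with a KEGG term gave 12 higher and 3 lower, beside 53.6% and 11.3% of the table, and a member median of 1.49. Leaving out ACADSB gave 10 higher and 9 lower, beside 35.9% and 29.8% of the table. The member median was then 0.0089, since the centre falls between AOX1 and SRM. A minimum mean FPKM of 1 and summed rows left 11 higher, 9 lower and the median of 0.95. The table's shares were 40.8% and 34.9% with the minimum, and 35.9% and 29.9% with summed rows.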
